A study of Saccharomyces cerevisiae with 4 samples.

Results

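The proteasome of budding yeast (Saccharomyces cerevisiae) was followed at the transcript level through the genes of its subunits and of RPN4. The 33 genes were found among the 6388 gene probes of an oligonucleotide array by systematic name: 14 subunits of the 20S core, 10 of the 19S base, 8 of the 19S lid and RPN4 itself. All 3 strains were deleted for BDF1, a bromodomain factor gene whose paralogue is BDF2, and had been kept in 0.6 mol/L NaCl for 45 min. BF2B was written bdf1∆bdf2∆[BDF2 L][pYX242], BF2S bdf1∆bdf2∆[BDF2 L][SIR2 H], and the comparison strain BF2 bdf1∆[pYX242][pRS316]. SIR2 encodes a histone deacetylase, and pYX242 and pRS316 are plasmid vectors. The labels do not say what L and H mean, and they give neither the number of cultures nor that of clones. BF2B and BF2S were each hybridised against BF2 on 2 slides with exchanged dyes, 4 slides in all, which asks how transcript levels in salt differ between each construct strain and BF2.

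The proteasome degrades proteins tagged with ubiquitin. Its barrel, the 20S core, is built of alpha rings that form the gate and beta rings that hold the protease sites. The 19S cap binds, unfolds and feeds in substrates, with a base of ATPases, scaffold proteins and ubiquitin receptors and a lid that removes ubiquitin. In this yeast Rpn4 is a short-lived transcription factor that activates nearly all subunit genes together, and it is itself destroyed by the proteasome.

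Each value below is a log2 ratio of strain over BF2. The dye swap used 1 RNA pair per comparison, so its slides count as 1 replicate, no test was possible, and ± gives the SD of 2 hybridisations, a technical spread. Calls of higher or lower needed a change past 2-fold, with the sign shared by the dye-swapped slides and at least 1 channel of each above local background. RNA came from whole cultures, so fewer cells with a transcript and less transcript per cell cannot be told apart. A ratio also does not say which of its strains moved.

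As a check of the labels, BDF2 lay 3.04-fold higher in BF2B than in BF2. BDF1 was not above background on either BF2B slide. Neither was SIR2, which the labels of BF2B and BF2 do not give as deleted, so the missing BDF1 signal cannot check the deletion. Apart from that check, the plasmid marker genes differed too. URA3 lay lower in BF2B at -1.12 ± 0.08, and LEU2, with saturated spots in BF2, at least 5.55-fold lower. Both strains are labelled with pYX242, and the cause of these marker differences was not tested. The BF2S slides stood apart, since their blank spots, with medians of 6049 and 5325 brightness units in the BF2S channel, were brighter than nearly every proteasome probe there. BDF1, which both strains lack by their labels, and SIR2 read higher in BF2S at 1.64 ± 0.28 and 1.51 ± 0.18, from BF2S signals under those blank medians. BF2 itself gave a BDF1 signal above local background on 1 BF2S slide. On the BF2B slides the blank medians were 29 and 110 units in BF2B and 52 and 70.5 units in BF2. The proteasome is therefore described mainly on the BF2B slides.

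In BF2B no proteasome gene was called higher than in BF2, 1 was called lower, and 3 lay below all the others. The median log2 ratio of the members was 0.16 ± 0.05, against -0.01 for all 4660 genes above background. It was 0.29 with the slides scaled to a common spread and 0.07 in the authors' deposited table, whose columns are not centred. Of the 32 members above background, 20 lay above 0 on both slides (62.5%, against 31.6% of all genes), 4 lay below 0 on both, and 8 differed in sign between the slides. The 1 member called lower was RPN12, while 2.98% of all genes were called, 1.37% higher and 1.61% lower. A single call among 32 genes is near that background. The 3 lowest, RPN12, RPN11 and PRE4, all lie on chromosome VI, and the other 29 members above background had means between -0.12 and 0.41. That range also holds 52.5% of all genes above background.

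**Figure D1:**
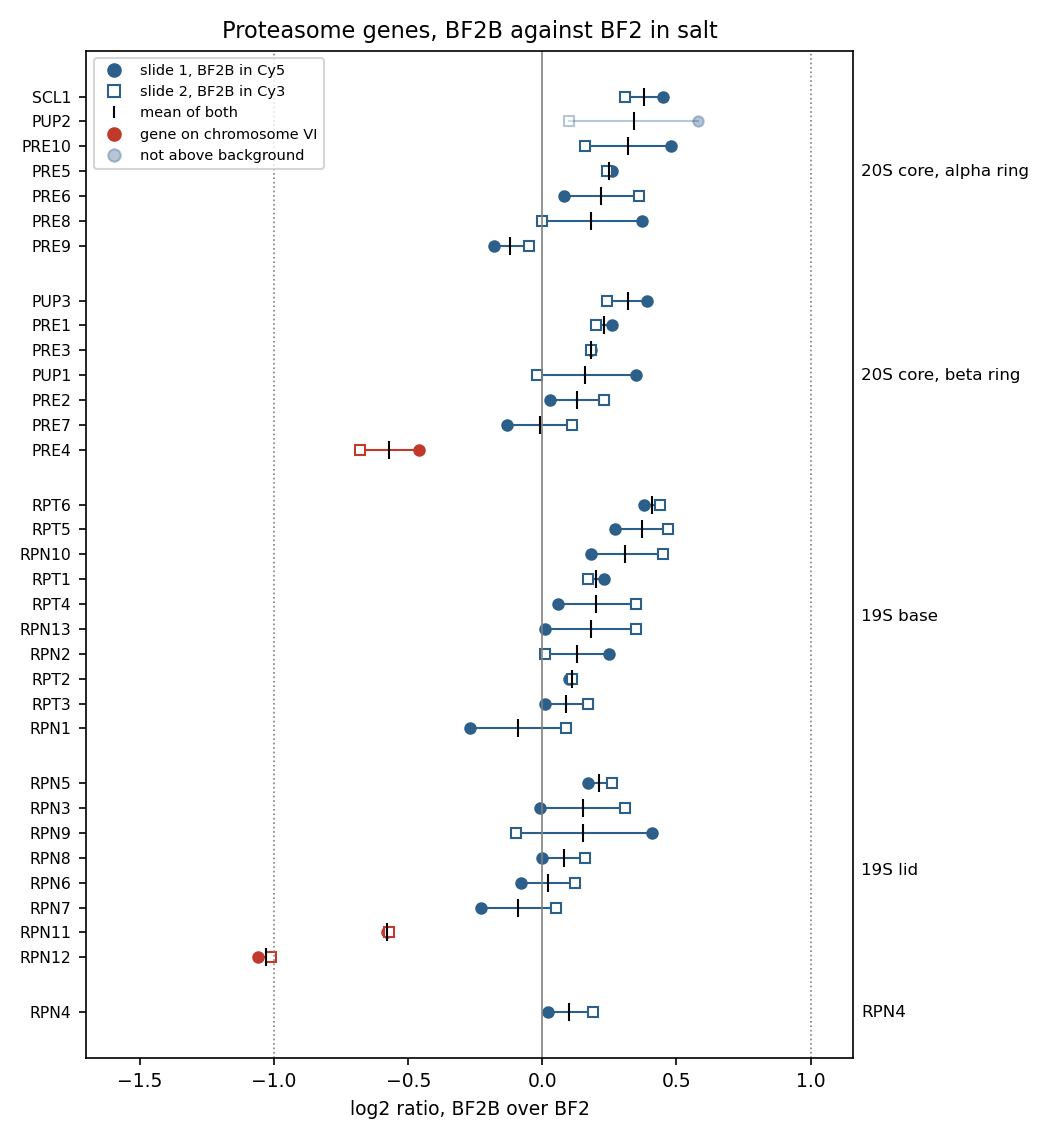
Log2 ratio of BF2B over BF2 for the 33 members on each of the 2 slides, grouped by place in the complex (circles, slide 1; squares, slide 2; bars, mean; dotted lines, 2-fold). The 3 genes of chromosome VI, in red, have means between -1.03 and -0.57, and the means of all other members above background lie between -0.12 and 0.41.

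RPN4 (YDL020C) did not differ from BF2 beyond its hybridisation spread. Its probe gave 1944 and 2328 units in BF2B, against 1879 and 2341 units in BF2. The log2 ratios were 0.02 and 0.19, a mean of 0.10 ± 0.12. Among the 32 members above background, 21 had a mean ratio above that of RPN4, so the regulator sat inside the span of the subunit genes.

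Among the alpha subunits, SCL1 (YGL011C) had the largest ratio. It gave 5422 and 5811 units in BF2B and 3817 and 5521 units in BF2, log2 ratios of 0.45 and 0.31 and a mean of 0.38 ± 0.10, or 1.30-fold. BF2B was the brighter channel on both of its slides. PRE10 stood at 0.32 ± 0.23, PRE5 at 0.25 ± 0.01, PRE6 at 0.22 ± 0.20 and PRE8 at 0.18 ± 0.26, the last with slides of 0.37 and 0.00. PRE9, the only core subunit gene that yeast can live without, was the one alpha gene below 0 on both slides, at -0.12 ± 0.09. PUP2 gave no signal above background on the BF2B slides in either strain, with 75 and 147 units in BF2B and -99 and 189 units in BF2. Its ratio of 0.34 ± 0.34 is therefore no measurement, and it is kept out of the counts of genes above background, though it enters the core medians over 14 genes.

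The beta ring ranged from 0.32 to -0.57. The genes of the catalytic subunits were PRE3 at 0.18 ± 0.00, PUP1 at 0.16 ± 0.26 and PRE2 at 0.13 ± 0.14, so none of the protease sites stood apart from the others beyond the spread. PUP3 reached 0.32 ± 0.10 and PRE1 0.23 ± 0.04, whereas PRE7 stood at -0.01 ± 0.17. PRE4 (YFR050C), a beta subunit without a protease site of its own, was the low end of the ring. It gave 2111 and 2361 units in BF2B, against 2909 and 4465 units in BF2, with log2 ratios of -0.46 and -0.68. The mean was -0.57 ± 0.15, or 1.48-fold lower, and each of its slides lay below every other core subunit.

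In the base 9 of 10 genes lay above 0 on both slides. The 6 ATPase genes, whose products unfold substrates, all did so, with means between 0.09 (RPT3) and 0.41 (RPT6). RPT6 (YGL048C) gave 3211 and 3774 units in BF2B, against 2393 and 3196 units in BF2, and its mean of 0.41 ± 0.04, or 1.33-fold, was the highest of all members. RPT5 followed at 0.37 ± 0.14, from 4928 and 6264 units in BF2B and 3961 and 5307 units in BF2. RPT1 stood at 0.20 ± 0.04, RPT4 at 0.20 ± 0.21 and RPT2 at 0.11 ± 0.01. Of the ubiquitin receptors, RPN10 reached 0.31 ± 0.19 and RPN13 0.18 ± 0.24. The scaffold genes stood at 0.13 ± 0.17 (RPN2) and -0.09 ± 0.26 (RPN1), and RPN1 was the one base gene whose slides differed in sign.

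The lid had the lowest median, 0.05 over its 8 genes and 0.12 over the 6 outside chromosome VI, and held RPN12 and RPN11. RPN12 (YFR052W), whose protein joins the lid late in assembly, gave 812 and 754 units in BF2B, against 1751 and 1966 units in BF2. Its log2 ratios were -1.06 and -1.01, a mean of -1.03 ± 0.04 or 2.05-fold lower, so it lay just past 2-fold on slide 2. The call ended with the median of its spots, at a mean of -0.99, and without background subtraction, at -0.86. It also ended with median centring and in the authors' deposited table, where the mean was no smaller, at -1.04 and -1.30, but 1 slide did not pass 2-fold. RPN11 (YFR004W), the deubiquitinase of the lid, gave 3178 and 3022 units in BF2B, against 4753 and 5323 units in BF2. It stood at -0.58 and -0.57, a mean of -0.58 ± 0.01 or 1.49-fold lower. RPN8, the partner of RPN11, was not low with it, at 0.08 ± 0.11.

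The remaining lid genes lay near 0. RPN5 stood at 0.21 ± 0.06, RPN3 at 0.15 ± 0.22, RPN6 at 0.02 ± 0.14 and RPN7 at -0.09 ± 0.20. RPN9 had the widest gap between slides of any member above background. It gave 1365 and 1072 units in BF2B, against 931 and 1368 units in BF2, so its ratios of 0.41 and -0.10 ran opposite ways and its mean of 0.15 ± 0.36 has no settled sign. Of the 8 lid genes 2 were above 0 on both slides, whereas 8 of the 13 core genes above background were. Outside chromosome VI this held for 2 of 6 lid genes, against 31.6% of all genes above background. The gene of the small lid subunit SEM1, with slides of 0.35 and 0.71, is counted with the assembly factors below and not here.

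Set against the base and lid together, the core did not differ beyond the spread between hybridisations. The median of the core was 0.20 ± 0.07 over 14 genes, or 0.18 ± 0.06 over the 13 above background, and that of base and lid 0.14 ± 0.09 over 18. Their difference was 0.23 on slide 1, where BF2B was labelled with Cy5, and 0.01 on slide 2, where it was labelled with Cy3. For the mean of both slides it was 0.06 with an SD of 0.16. Leaving out the members of chromosome VI left it at 0.06, and leaving out PUP2 gave 0.04.

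The classes ran opposite ways between the slides. Of the core subunits above background, 9 of 13 had a higher ratio on slide 1 than on slide 2, against 3 of 18 in base and lid. The core median was 0.26 on slide 1 and 0.17 on slide 2, whereas the base gave 0.14 and 0.26 and the lid -0.04 and 0.09. Dye and slide changed together here and cannot be told apart. Against the base alone the core differed by 0.01 with an SD of 0.15, and against the lid alone by 0.15 with an SD of 0.16.

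**Figure D2:**
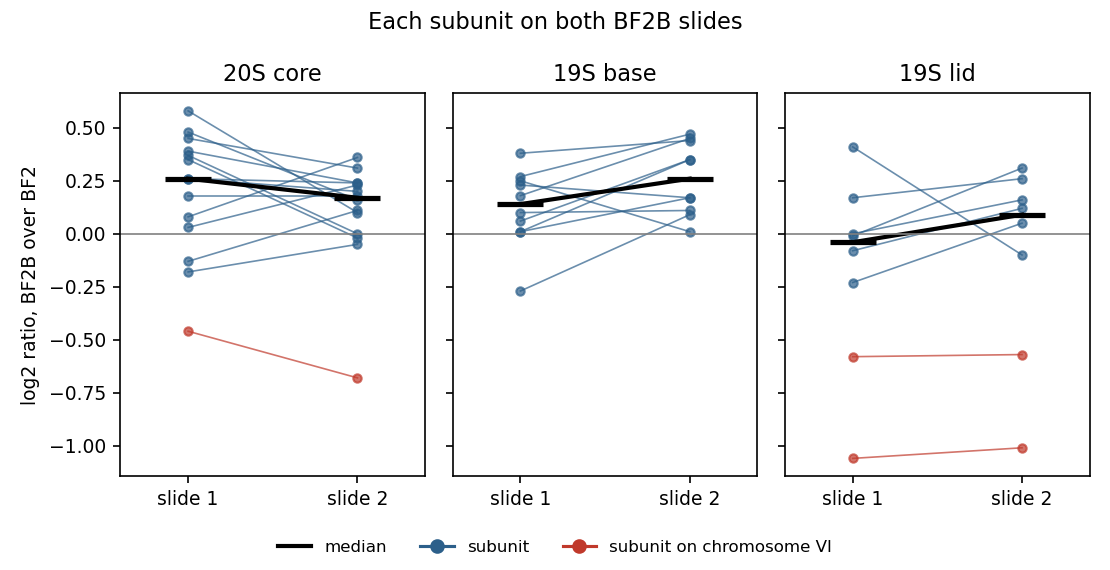
Log2 ratio of BF2B over BF2 for each subunit on slide 1 (BF2B in Cy5) and slide 2 (BF2B in Cy3), joined by a line, with the class median in black (14 core genes including PUP2, 10 base genes, 8 lid genes). Core medians are 0.26 and 0.17, base medians 0.14 and 0.26 and lid medians -0.04 and 0.09.

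The members that lay low shared their chromosome. Over the 87 genes of chromosome VI above background, the median log2 ratio of BF2B over BF2 was -0.69 on slide 1, -0.78 on slide 2 and -0.75 for their mean, and 72 of these genes lay below 0 on both slides. The medians of the other 15 chromosomes ran from -0.08 to 0.48, the highest being that of chromosome I, on which no member lies. On chromosome VI 18.4% of genes were called lower and 1.15% higher, whereas 1.29% of the 4573 genes elsewhere were called lower. The interquartile range of the chromosome VI genes was -1.03 to -0.46, and all 3 members lay in it or at its edge. RPN12 had 20 of the 87 genes below it, RPN11 55 and PRE4 57.

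Measured against their own chromosome, these 3 genes no longer stood out as a group. With each slide centred on the median of every chromosome, RPN11 came to 0.19 and PRE4 to 0.20. RPN12 stayed low at -0.27, below PRE9, which came to -0.11 and was the lowest member outside chromosome VI before centring. The 30 members elsewhere had a median of 0.18 before that step. Their SD over genes, with PUP2 included, was 0.14. It was 0.30 over all 33 members and 0.44 over all genes above background, but both of these sets keep chromosome VI. What lowers chromosome VI in BF2B relative to BF2 was not tested.

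**Figure D3:**
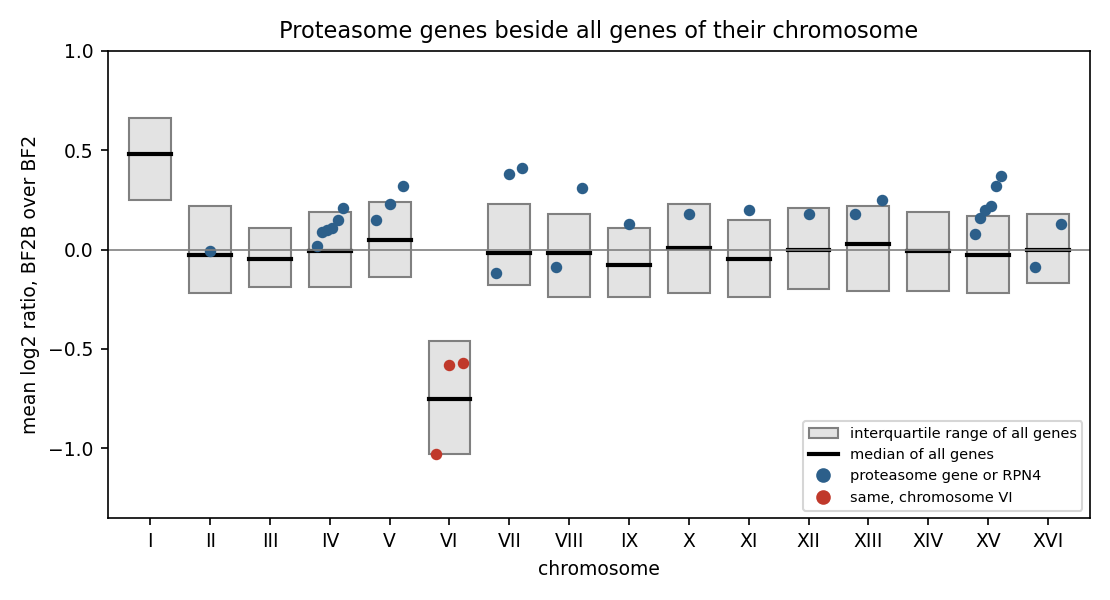
Mean log2 ratio of BF2B over BF2 of each member above background (points) beside all genes of its chromosome above background (grey box, interquartile range; black line, median). Chromosome VI has a median of -0.75 and chromosome I one of 0.48, and the 3 members on chromosome VI lie in or at the edge of its interquartile range.

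Among genes that work around the proteasome, the called ones also lay on chromosome VI. Of 12 genes for assembly factors, alternative activators and the small lid subunit SEM1, 11 were above background, with 0 higher, 1 lower and 10 not called and a median of 0.08 over all 12. SEM1 was the highest at 0.53 ± 0.25, followed by UMP1, which encodes the chaperone of the maturing core, at 0.50 ± 0.12. The 1 lower gene was BLM10, which encodes a core activator. It lies on chromosome VI and stood at -1.22 ± 0.16, or 2.33-fold lower, with BF2B above background on only 1 slide. NAS2, a base assembly chaperone gene, was the lowest outside chromosome VI, at -0.47 ± 0.14.

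Of 11 genes for proteins associated with the complex, 10 were above background, with 0 higher, 1 lower and 9 not called and a median of 0.21 over all 11. The 1 lower gene was again on chromosome VI. It was UBP6, which encodes a deubiquitinase bound to the proteasome base, at -1.14 and -1.12 on the slides and a mean of -1.13 ± 0.01, or 2.19-fold lower. CUZ1 was the highest at 0.47 ± 0.16. The ubiquitin shuttle genes RAD23, DDI1 and DSK2 stood at 0.22 ± 0.10, 0.17 ± 0.06 and 0.38 ± 0.59.

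Of 15 genes of ubiquitin conjugation and the Cdc48 unfoldase, 14 were above background and 0 were called, with a median of 0.16 over all 15. The highest was UBR2, whose product is a ubiquitin ligase that marks Rpn4 for destruction, at 0.35 ± 0.04 with BF2 above background on 1 slide. Its partner gene MUB1 stood at 0.27 ± 0.22. UFD2, a ubiquitin chain elongation factor gene, was the lowest at -0.42 ± 0.30. The stress-inducible polyubiquitin gene UBI4 stood at 0.12 ± 0.25 and CDC48 at 0.09 ± 0.08. Of 4 genes for factors that activate RPN4, 3 were above background and 0 were called. YAP1 was the highest at 0.47 ± 0.15, HSF1 stood at 0.24 ± 0.27 and PDR3 was the lowest at -0.17 ± 0.25, while PDR1 failed the background rule.

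**Figure D4:**
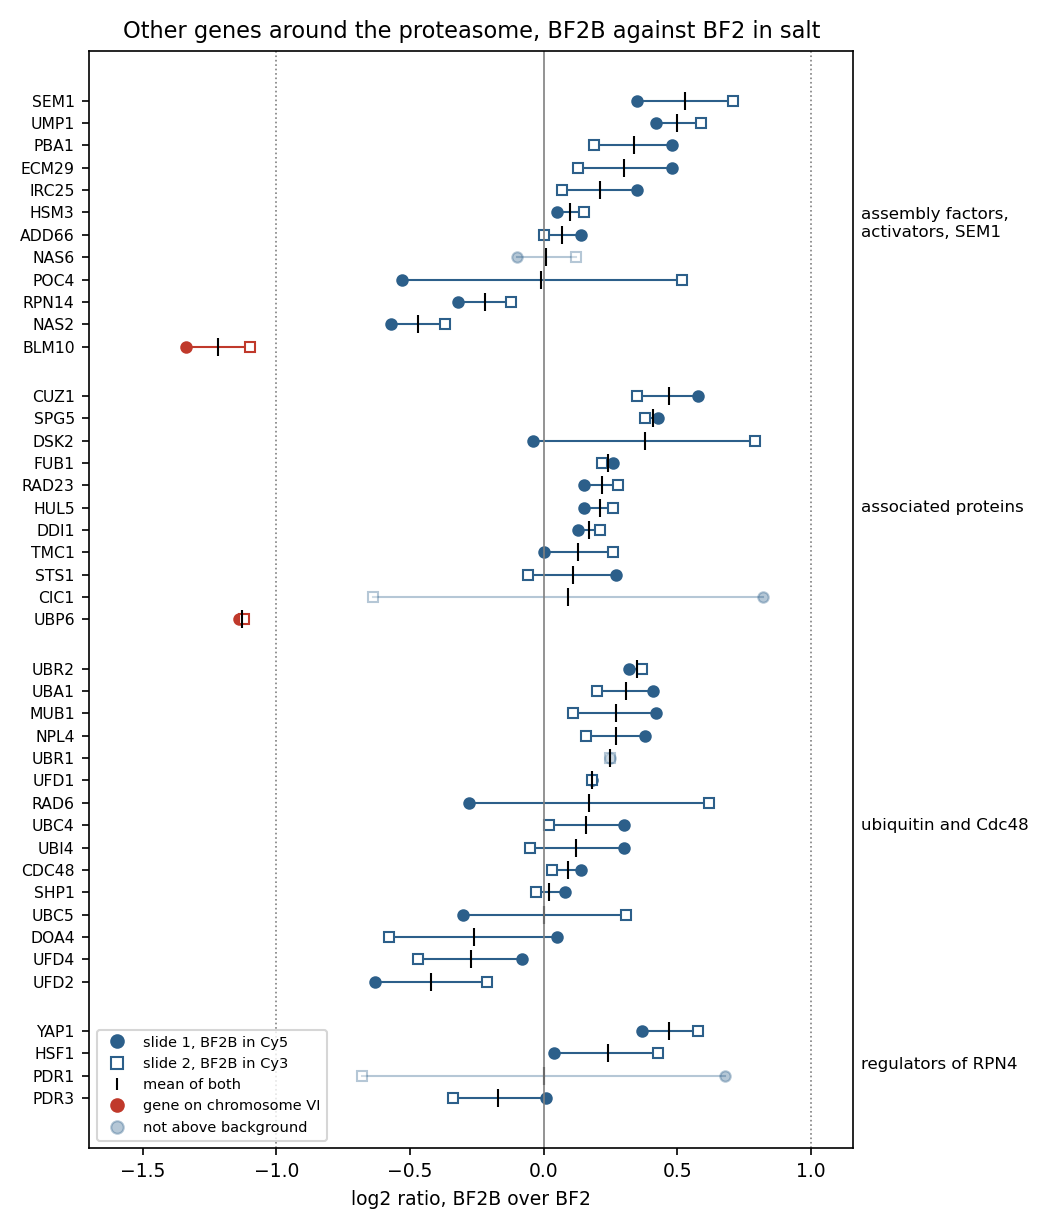
Log2 ratio of BF2B over BF2 for genes around the proteasome on each of the 2 slides (circles, slide 1; squares, slide 2; bars, mean; dotted lines, 2-fold). The 2 genes past 2-fold on both slides, BLM10 at -1.22 and UBP6 at -1.13, lie on chromosome VI and are drawn in red.

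On the BF2S slides 24 of 33 members read below 0 on both slides, as did 2383 of the 5290 genes above background. All BF2S ratios, calls and medians rest on the intensity correction within each slide, which moved some ratios far. PRE6 read -0.25 on slide 1 from 3113 units in BF2S and 30198 units in BF2. RPT2 read 0.43 on slide 2, although BF2S gave 2460 units and BF2 7080 units. Few BF2S signals of the members exceeded the blank median, and the typical gene was also dimmer than the blanks. Over all genes the median BF2S signal was 1333 on slide 1 and 633 on slide 2, under both blank medians given above. The median BF2 signal over all genes, 1221.5 and 1411 units, also lay under the blank medians of its channel. In the BF2S channel 1 of the 33 members lay above the blank median on slide 1 and 0 on slide 2, against 32 and 31 members in the BF2 channel, whose blank medians were 1709 and 1768 units. In BF2S 27 and 17 members were above local background, against 33 on both slides in BF2. The rule called 17 members, 16 lower and 1 higher, where 44.4% of 5290 genes were called, 25.1% lower and 19.3% higher. Of the 16, only 3 were above local background in BF2S on both slides, 7 were so on 1 slide and 6 on neither. The part of the blank signal in these ratios was not tested.

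**Figure D5:**
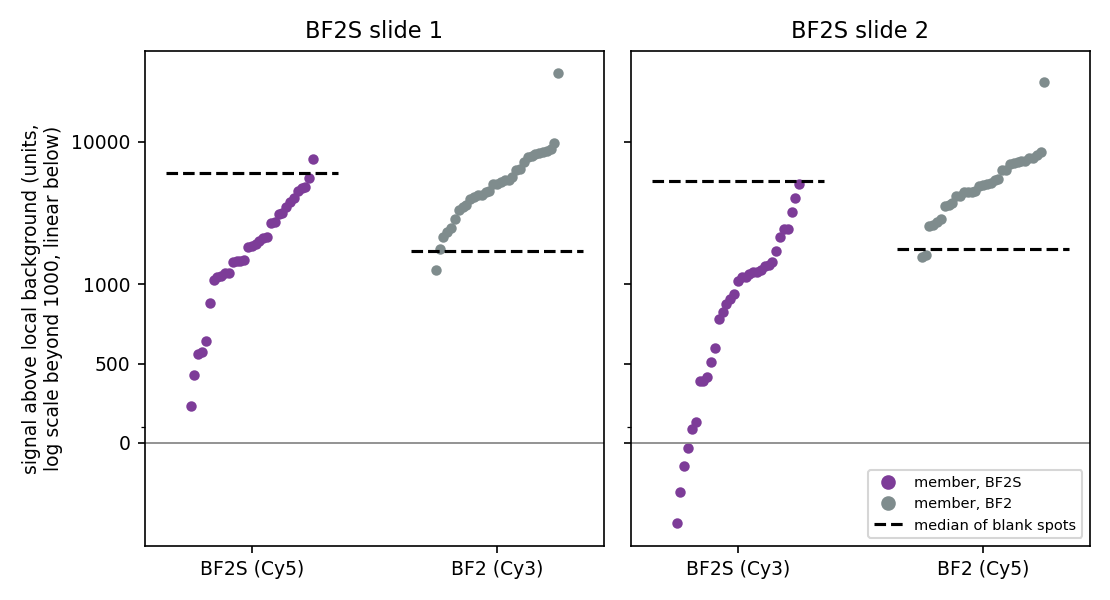
Signal above local background of the 33 members on the BF2S slides, sorted within each column, in the BF2S channel (purple) and the BF2 channel (grey), with the median of blank spots as a dashed line (axis logarithmic beyond 1000 units and linear below). In BF2S 1 member on slide 1 and 0 on slide 2 exceed the blank median, against 32 and 31 in BF2.

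For these 6 members not above background in BF2S only a bound can be given, which rests on the intensity correction. RPN4 was among them, at least 2.91-fold lower, from 1076 and 388 units in BF2S and 3322 and 3575 units in BF2. The bounds of the others were at least 8.32-fold for PRE4, 3.73-fold for PRE1, 2.44-fold for PRE8 and 1.45-fold for RPN9. For RPT5 the bound of 8.72-fold equals its fitted ratio, since its own signal on both slides lay at or over the lowest one above background. Above local background in BF2S on both slides were 3 lower genes. These were PUP1 at -1.62 ± 0.84, RPN3 at -1.30 ± 0.04 and RPT6 at -1.06 ± 0.03. Their BF2S signals all lay under the blank medians. The 1 higher gene was PUP2 at 2.00 ± 0.43, with 7584 and 4011 units in BF2S and 1780 and 1553 units in BF2, close to the blank medians of both channels.

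The core median was -1.10 ± 0.05 and that of base and lid -1.18 ± 0.03, with a difference of 0.08 on slide 1, 0.20 on slide 2 and 0.08 for their mean (SD 0.08). The direction turned without background subtraction, to -0.04, and over members above background in both channels, to -0.53. Against the base alone the core was 0.23 higher (SD 0.01) and against the lid alone 0.05 (SD 0.02), but the BF2S signals behind these medians lay under the blank median for all members but 1 on slide 1. BF2 was shared with the BF2B comparison, so the values are given side by side only. On chromosome VI, RPN11 read -3.11 and -3.14 on the slides and RPN12 -1.14 and -0.86, both above background in BF2S on only 1 slide, while the median of that chromosome was -0.01 and those of the other 15 ran from -0.69 to 1.02.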

How the data were processed

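Total RNA was amplified linearly and labelled with Cy5 or Cy3, per the labels' protocols. Per the file headers, the deposited scanner files give spot intensity with local background in a red (Cy5) and a green (Cy3) channel. The scanner is not given in the sources used here. No member overlaps another annotated gene in the gene table of assembly R64, by which 5849 of 6388 gene probes and all 80 listed genes were named. The deposited value table holds log2 ratios. Set against log2 of the scanner signals for genes above 200 units in both channels, they ran as strain over BF2 in every column (r of 0.9603 to 0.9959), and the median difference of 0.00 shows no centring. Column medians were 0.20, -0.29, 0.23 and -0.80.

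Spot medians were corrected with limma 3.58.1 in R 4.3.3 by normexp (offset 50) and by loess within each slide on gene spots. Values of the 3 spots per probe were averaged, and the labelled dyes set the direction of each ratio. Background was passed in a channel if 2 or more of the 3 spots lay over their local background mean by 2 SD. Spots with a negative mark (54.6%, 0%, 32% and 67.3% of gene spots on the 4 slides), which the files do not explain, were kept. A bound sets the brighter channel against the lowest signal above background, or against the probe's own dim signal on slides where that was higher. The rules were run on simulated slides whose changed genes moved by more than RPN12 did and which held no blank spots. That run therefore does not bear on the call of RPN12 or on the BF2S slides. Tables used pandas 2.3.3 and numpy 2.4.6 in Python 3.11.15, and plots matplotlib 3.10.9.

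Members and gene lists were chosen with earlier results of these data known. Every member is given. Of the other lists, the called, highest and lowest genes are named, with a few others by function, picked with values in view. The alternatives were an offset of 10, no background subtraction, centring on the median, the deposited table, scaling between slides, the median of spots, marked spots left out, other filters and folds (1.5 and 3), each slide alone, chromosome VI left out or each chromosome centred, and RPN10 and RPN13 in neither class.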

Additional observations from a re-analysis of the deposited data

How the results depend on the processing

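The number of slides allowed no estimate of the spread between cultures, and PUP2 gave no signal above background on the BF2B slides. The 1 member called in BF2B became 0 without background subtraction, with median centring, in the deposited table, with the median of spots, with chromosomes centred, at 3-fold and, by construction, without chromosome VI. With median centring and in the deposited table the mean of RPN12 was no smaller, at -1.04 and -1.30. The count became 2 with scaling between slides, which stretches the BF2B ratios towards those of the BF2S slides. On each slide alone it stayed 1, RPN12. The BF2B core minus base and lid ranged from 0.01 to 0.23 over 13 alternatives and was positive in each, with 0.01 without slide 1 and 0.23 without slide 2. The BF2B median of 0.16 became 0.29 with scaling and 0.07 in the deposited table, and 0.17 and 0.10 on a single slide. The 17 members called in BF2S became 11 without background subtraction, 7 with scaling, 4 with both channels above background and 11 at 3-fold. They became 23 with median centring, 24 at 1.5-fold and 22 on either slide alone. The deposited table gave 20, of which 13 were among the 17. The BF2S core minus base and lid of 0.08 became -0.04 without background subtraction, 0.20 with median centring and -0.53 with both channels above background, and 0.20 and 0.08 on a single slide. Apart from the constructions named, the cause was not tested. No paired analysis was possible because the results come from no test and the replicate numbers mark dye orientations of 1 RNA pair.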

Other observations

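The genes annotated beside the low members of chromosome VI, looked up after the values were seen, were mostly low too. That is the pattern of the chromosome, on which 82.8% of genes above background lay below 0 on both slides. PRE4 and RPN12 have a single gene between them, RET2, which encodes a coatomer subunit and stood at -1.31 ± 0.04, lower than both. On the far side of PRE4, KGD4, a subunit gene of the mitochondrial ketoglutarate dehydrogenase, stood at -0.50 ± 0.05. On the far side of RPN12, HXK1, which encodes a hexokinase, stood at 0.46 ± 0.03, above 0 on both slides. Beside RPN11, the phosphatase inhibitor gene YPI1 stood at -0.76 ± 0.05. SEC4, a secretory GTPase gene beside BLM10, stood at -0.81 ± 0.08, and GCN20, beside UBP6, at -0.66 ± 0.21. The neighbours SAD1, MIC19 and SMC1 were not above background.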
